A study of Mus musculus with 6 samples.

Results

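The genes described here are 10 genes of gastric-type mucosa, chosen by name and found in the deposited table of normalised levels by their Ensembl identifiers. They are the trefoil factors Tff1, Tff2 and Tff3, the gastrokines Gkn1, Gkn2 and Gkn3, the aspartic proteases Ctse and Pgc, the annexin Anxa10 and the adhesion protein gene Vsig1. All 10 have a row among the 25978 genes of the table, and all 10 were among the 15783 genes with a mean back-transformed level of at least 10 over the libraries, the filter for testing. The RNA came from primary pancreatic tumours of KPCY mice, on a C57BL/6 background and aged 5 to 7 weeks, which carry the Pdx1-Cre transgene, floxed Trp53 (Trp53fl/fl) and the Rosa26LSL-YFP reporter. Cre under the Pdx1 promoter turns on a yellow fluorescent protein (YFP) and deletes Trp53, and both groups carry the same alleles. YFP-positive cells were sorted by the surface adhesion protein EpCAM into EpCAM+ and EpCAM- cells, with 3 libraries of each. Pdx1-Cre marks normal pancreatic cells as well as tumour cells, and Pdx1 is also active in the duodenum and distal stomach during development. The labels name the tissue as pancreatic tumour and do not say whether libraries came from separate animals or whether equal replicate numbers share a tumour.

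The glandular stomach protects itself with a mucus gel that surface and neck cells secrete. Trefoil factors are small secreted peptides packed with that mucus and act in repair of the epithelium, and gastrokines are secreted proteins of the same cells that carry a BRICHOS domain. Precursor lesions of pancreatic cancer and tumours of the classical subtype are known to take on genes of this gastric programme. In bulk RNA of sorted cells, fewer cells that express a gene and less RNA per cell cannot be told apart.

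The trefoil domains of the 3 trefoil factors are shown because the spacing of their cysteines defines the family. Each run gives the spliced coding bases from the first to the last cysteine of the trefoil order in GENCODE M21 transcripts (GRCm38, chromosome 17, minus strand), with cysteine codons in capitals.
Tff1, codons 34 to 71 (chr17:31162689-31162802): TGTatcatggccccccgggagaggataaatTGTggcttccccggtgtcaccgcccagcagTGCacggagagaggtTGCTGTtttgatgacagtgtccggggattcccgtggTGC
Tff2, codons 31 to 118 (chr17:31142224-31143252): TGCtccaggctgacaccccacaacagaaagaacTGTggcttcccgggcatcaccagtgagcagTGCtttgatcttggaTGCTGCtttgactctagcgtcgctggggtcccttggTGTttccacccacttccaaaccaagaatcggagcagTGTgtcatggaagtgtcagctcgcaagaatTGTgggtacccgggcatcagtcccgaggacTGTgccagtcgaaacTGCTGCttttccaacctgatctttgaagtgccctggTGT
Tff3, codons 33 to 70 (chr17:31127387-31127500): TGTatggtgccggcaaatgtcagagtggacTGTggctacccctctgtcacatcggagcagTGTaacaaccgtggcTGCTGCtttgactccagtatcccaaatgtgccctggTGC
The trefoil order of 6 cysteines occurs 1 time in Tff1, 2 times in Tff2 and 1 time in Tff3. Tff2 thus codes for a peptide of 129 residues before processing, against 87 for Tff1 and 81 for Tff3. No stretch of 50 bases in the annotated transcripts of Tff2, Tff3, the gastrokines, Ctse, Anxa10, Vsig1 or Pgc occurred in a transcript of another gene on either strand. For Tff1, 126 of 697 such stretches lie in the antisense transcript Gm15318. No label or header says whether the authors counted reads by strand, so reads of Tff1 and Gm15318 may be mixed there.

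The levels of all 10 genes were higher in EpCAM+ than in EpCAM- libraries, and in none did the groups overlap. Levels are on the deposited log2 scale, and fold changes are EpCAM- minus EpCAM+ on that scale. With limma and a threshold of 0.05 on the Benjamini-Hochberg adjusted p, all 10 were lower and 0 were higher in EpCAM- cells. Of all tested genes, 43.4% were called, 23.1% as lower and 20.3% as higher. For 29.2% of tested genes the EpCAM- libraries lay below the EpCAM+ libraries without overlap. A log2 fold change of -4 or less with an adjusted p under 0.05 was reached by 10 of 10 members, against 2.69% of tested genes. The median log2 fold change was -5.83 over the members and 0.004 over all tested genes. As the members were listed with earlier results of these data known, these counts describe the list and do not test it. EpCAM+ replicate 1 had the highest islet and leukocyte marker sums. Of the EpCAM- libraries, replicate 3 had the lowest fibroblast marker sum and Epcam level. Without these 2 libraries, 10 of 10 members were called lower as well, where 2462 of 15783 tested genes were. Whether other cells in the sort add to the fold changes was not tested by leaving them out.

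**Figure D1:**
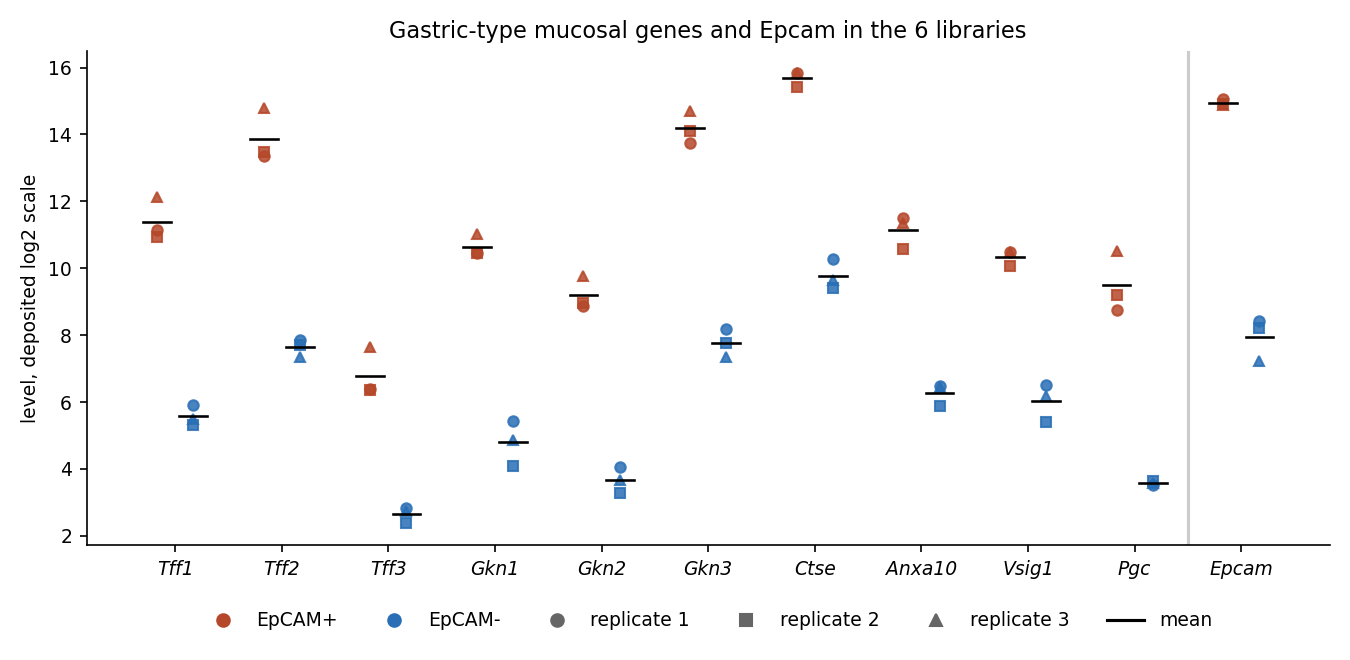
Level of each member, and of Epcam, in each library on the deposited log2 scale (y axis), with EpCAM+ in red, EpCAM- in blue, a symbol for each replicate number and a bar at the group mean. In every member the 3 EpCAM+ libraries sit above the 3 EpCAM- libraries, and the smallest gap, 3.51 log2 units, is that of Tff3.

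Among the trefoil factors, Tff2 had the highest level. Tff2 (ENSMUSG00000024028, GRCm38 chromosome 17, 31141049 to 31144282), also called spasmolytic polypeptide and made by mucous neck cells, was at 13.36, 13.47 and 14.78 in EpCAM+ replicates 1, 2 and 3 and at 7.84, 7.70 and 7.35 in EpCAM- replicates 1, 2 and 3. EpCAM+ replicate 3 stood more than 1 log2 unit above the other EpCAM+ libraries, while the EpCAM- libraries lay close together. Its log2 fold change was -6.24 ± 0.37 (SE, limma adjusted p = 2.71e-05), a level 75.6-fold lower. Tff1 (ENSMUSG00000024032, chromosome 17, 31161395 to 31165277), the trefoil factor of gastric surface cells, was at 11.13, 10.93 and 12.12 in EpCAM+ and at 5.92, 5.32 and 5.50 in EpCAM- replicates 1, 2 and 3. Replicate 3 was again the highest EpCAM+ library. It fell by 5.82 ± 0.33 (SE, limma adjusted p = 2.19e-05) on the log2 scale. Tff3 (ENSMUSG00000024029, chromosome 17, 31125306 to 31129646), best known from intestinal goblet cells, was at 6.38, 6.35 and 7.63 in EpCAM+ and at 2.85, 2.40 and 2.73 in EpCAM- replicates 1, 2 and 3. It was the member with the lowest level, and the only one whose mean back-transformed level in EpCAM- libraries, 6.37, lay under the filter, so it was tested because of its EpCAM+ level. Its log2 fold change of -4.13 ± 0.38 (SE, limma adjusted p = 0.000183) was also the smallest of the members. The transform of the deposited values is not known, and whether it shrinks differences of low genes was not tested. The antisense gene Gm15318, which overlaps the 3′ part of Tff1, was at 5.03, 5.04 and 5.85 in EpCAM+ and at 2.38, 2.24 and 2.21 in EpCAM- replicates 1, 2 and 3.

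The gastrokines showed the same order of groups at different levels. Gkn3 (ENSMUSG00000030048, chromosome 6, 87383256 to 87388935) was at 13.75, 14.10 and 14.71 in EpCAM+ and at 8.17, 7.77 and 7.36 in EpCAM- replicates 1, 2 and 3. It had the largest fall of the members, a log2 fold change of -6.42 ± 0.29 (SE, limma adjusted p = 9.36e-06), which left 1.17% of the EpCAM+ level in EpCAM- cells. Gkn1 (ENSMUSG00000030050, chromosome 6, 87345650 to 87350942), the abundant gastrokine of surface mucous cells, was at 10.45, 10.45 and 11.02 in EpCAM+ and at 5.44, 4.07 and 4.88 in EpCAM- replicates 1, 2 and 3. Its EpCAM- libraries were spread over more than 1 log2 unit (SD 0.69, n = 3), the widest spread of a member in that group. The log2 fold change was -5.84 ± 0.36 (SE, limma adjusted p = 3.03e-05). Gkn2 (ENSMUSG00000030049, chromosome 6, 87373357 to 87379497), whose product pairs with Tff1 in gastric mucus, was at 8.88, 8.97 and 9.77 in EpCAM+ and at 4.05, 3.28 and 3.68 in EpCAM- replicates 1, 2 and 3, a log2 fold change of -5.53 ± 0.31 (SE, limma adjusted p = 2.23e-05). In all 3 gastrokines, replicate 3 was the highest EpCAM+ library and replicate 1 the highest EpCAM- library.

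Both aspartic proteases fell to a like extent from very different levels. Ctse (ENSMUSG00000004552, chromosome 1, 131638306 to 131675505) codes for cathepsin E, an intracellular protease of gastric epithelium. It was at 15.83, 15.43 and 15.83 in EpCAM+ and at 10.27, 9.39 and 9.64 in EpCAM- replicates 1, 2 and 3. The EpCAM+ libraries differed little (SD 0.23, n = 3), and the log2 fold change was -5.93 ± 0.24 (SE, limma adjusted p = 7.08e-06). Pgc (ENSMUSG00000023987, chromosome 17, 47726842 to 47734482) codes for pepsinogen C, a digestive zymogen. Its level was 8.76, 9.19 and 10.52 in EpCAM+ and 3.51, 3.65 and 3.57 in EpCAM- replicates 1, 2 and 3. Pgc had the widest spread of a member within EpCAM+ (SD 0.92, n = 3) and the narrowest within EpCAM- (SD 0.073, n = 3). It fell by 5.92 ± 0.43 (SE, limma adjusted p = 6.43e-05) on the log2 scale. Of 5 other listed aspartic proteases, 4 were tested and 2 fell, where 23.1% of all tested genes fell. The napsin gene Napsa (-2.94 ± 0.36, SE) and the beta-secretase relative Bace2 (-1.26 ± 0.36, SE) fell, and Bace2 lost its call without any 1 of EpCAM+ replicates 1, 2 and 3 or EpCAM- replicate 1. The lysosomal protease gene Ctsd (-0.064, adjusted p = 0.871) and Bace1 (0.077, adjusted p = 0.546) did not pass in limma, and the renin gene Ren1 was under the filter. The list's median was -0.66.

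Anxa10 and Vsig1, which are not secreted mucus components, also fell. Anxa10 (ENSMUSG00000031635, chromosome 8, 62057042 to 62123150), an annexin of gastric epithelium, was at 11.51, 10.56 and 11.35 in EpCAM+ and at 6.47, 5.89 and 6.45 in EpCAM- replicates 1, 2 and 3. Replicate 2 was the lowest library in each group, and the log2 fold change was -4.87 ± 0.29 (SE, limma adjusted p = 2.57e-05). Vsig1 (ENSMUSG00000031430, chromosome X, 140907608 to 140939472), an immunoglobulin-domain adhesion protein of gastric epithelial junctions, was at 10.47, 10.06 and 10.49 in EpCAM+ and at 6.50, 5.42 and 6.17 in EpCAM- replicates 1, 2 and 3. Replicate 2 was again the lowest in each group. The log2 fold change was -4.31 ± 0.29 (SE, limma adjusted p = 4.56e-05). With Tff3, these were the members with the smallest log2 fold changes. Their EpCAM- levels were 3.41% (Anxa10) and 5.03% (Vsig1) of the EpCAM+ levels on the back-transformed mean log2 scale.

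Trefoil factors, gastrokines, Pgc and Anxa10 (SD 0.51, n = 3) varied more between EpCAM+ libraries than Ctse and Vsig1 did. Replicate 3 was the highest EpCAM+ library for 8 of 10 members, where 29.1% of tested genes had this order. Its level was at least 1 log2 unit above the mean of EpCAM+ replicates 1 and 2 for 4 members, namely Tff2 (1.37), Tff3 (1.26), Tff1 (1.09) and Pgc (1.55), where 1.22% of tested genes reached that difference. For Gkn1, Gkn2 and Gkn3 this difference was 0.57, 0.84 and 0.79. For Ctse (0.20), Anxa10 (0.32) and Vsig1 (0.22) it was small. EpCAM+ replicate 2 was the lowest library for 6 of 10 members, these 3 among them. For Gkn1, another of the 6, EpCAM+ replicates 1 and 2 were both at 10.447. The share of all tested genes with this lowest library was not computed. Within EpCAM-, replicate 1 was the highest library for 9 of 10 members, against 42.0% of tested genes. The members share libraries, so these counts are not independent of each other and carry no test. Without EpCAM+ replicate 3, log2 fold changes were -5.45 for Tff1, -5.79 for Tff2, -3.71 for Tff3 and -5.40 for Pgc. All 10 members were still called lower in that fit, where 2853 of 15783 tested genes were.

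**Figure D2:**
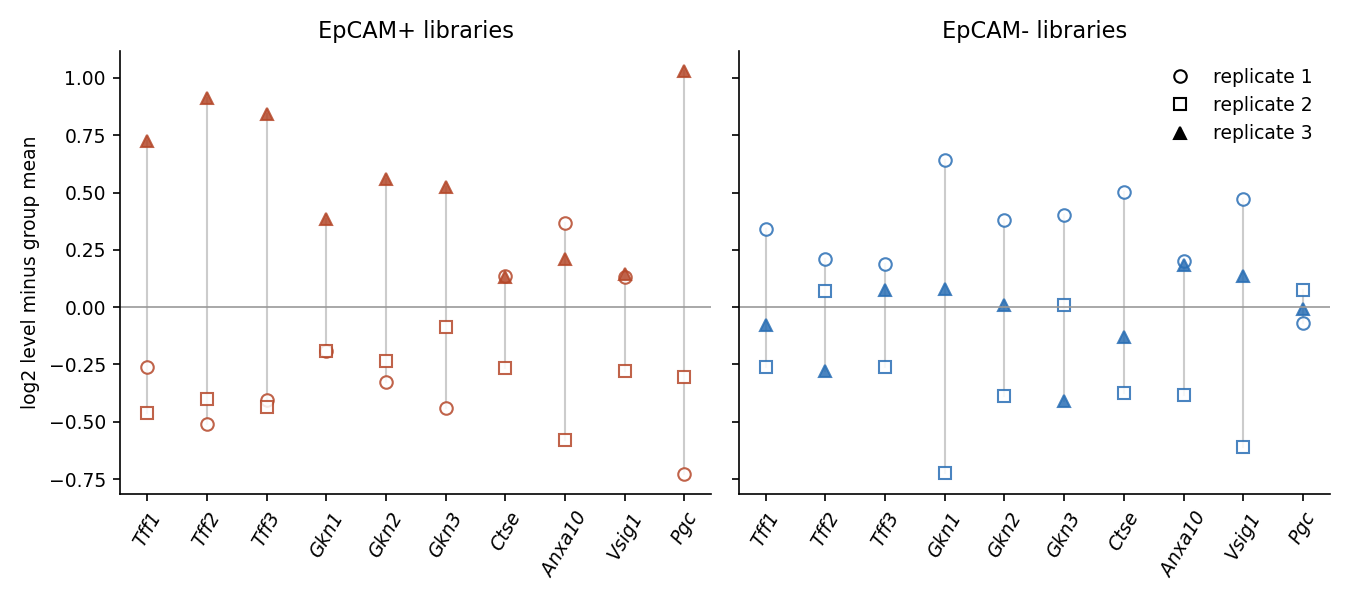
Log2 level of each member minus the mean of its group (y axis), for the EpCAM+ libraries on the left and the EpCAM- libraries on the right, with a symbol for each replicate number and a grey line over the range. EpCAM+ replicate 3 lies above the other EpCAM+ libraries for the trefoil factors, gastrokines and Pgc, with the largest deviation, 1.03, in Pgc.

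Levels of different genes were compared per kilobase of merged exons, on the back-transformed scale. In EpCAM+ libraries the highest members were Tff2 at 28600 ± 17070, Gkn3 at 22700 ± 7875 and Ctse at 16870 ± 2559 (SD, n = 3 each). Their ranges overlap, and with these lengths each of them led in a different library: Ctse in EpCAM+ replicate 1 (18370), Gkn3 in replicate 2 (20580) and Tff2 in replicate 3 (48290). These 3 ranked 24, 32 and 60 among the tested genes by mean EpCAM+ level per kilobase. With the length of its longest annotated transcript, Ctse was at 25150 ± 3815 (SD, n = 3), above Gkn3 in the mean, and led in replicate 2 as well (20750). Tff1 followed at 4102 ± 1943 on merged exons. Below it came Gkn1 (1299 ± 315), Anxa10 (1025 ± 323), Gkn2 (779 ± 282), Pgc (598 ± 403) and Vsig1 (473 ± 74.7), neighbours in this order that did not differ beyond their spread. Tff3 was last at 246 ± 136 (SD, n = 3). In EpCAM- libraries no member exceeded 392.8 per kilobase of merged exons, the value of Tff2 in replicate 1 (581.1 for Ctse there with its longest transcript), and Pgc was the lowest at 8.60 ± 0.44 (SD, n = 3). By mean EpCAM- level on merged exons, Tff2, Ctse and Gkn3 still lay above most tested genes, at percentiles 76.7, 72.7 and 71.1. The other members lay between 14.3 (Pgc) and 42.5 (Tff1). In EpCAM+ libraries Tff3 was at percentile 69.0. The members' summed share of all back-transformed values was 0.349%, 0.290% and 0.478% in EpCAM+ replicates 1, 2 and 3. In EpCAM- libraries it was 0.00775% or less. Ctse alone made up 63.6%, 55.0% and 46.0% of the members' sum in EpCAM+ replicates 1, 2 and 3, not counted per length.

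**Figure D3:**
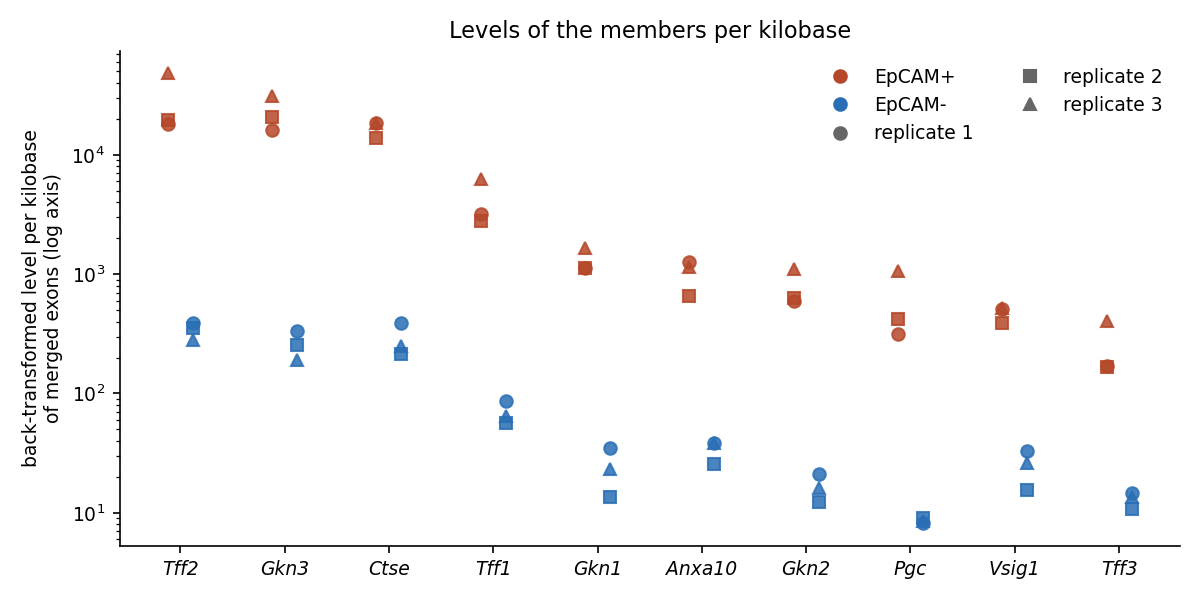
Back-transformed level per kilobase of merged exons (y axis, log scale) for each member, ordered by mean EpCAM+ level, with EpCAM+ in red and EpCAM- in blue and a symbol for each replicate number. Tff2, Gkn3 and Ctse lie at 13910 or more in every EpCAM+ library, with Tff2 highest at 48290 in replicate 3.

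Epcam itself, whose protein was sorted on, was at 15.06, 14.90 and 14.89 in EpCAM+ and at 8.42, 8.22 and 7.22 in EpCAM- replicates 1, 2 and 3. Its log2 fold change of -7.00 ± 0.30 (SE, limma adjusted p = 7.43e-06) left 0.782% of the EpCAM+ level, less than for any member (1.17% for Gkn3 to 5.70% for Tff3). The log2 ratio of a member to Epcam was therefore higher in EpCAM- libraries on average, by 0.57 for Gkn3, 0.76 for Tff2, 2.12 for Anxa10, 2.69 for Vsig1 and 2.87 for Tff3. For Tff3, Gkn2, Ctse, Anxa10 and Vsig1 the ratio did not overlap between groups, and for the other 5 members it did. Of all tested genes, 99.5% had a ratio to Epcam that was higher in EpCAM- without overlap. The ratios were not tested. The lowest Epcam level was that of EpCAM- replicate 3. This library held the lowest EpCAM- value for only 2 members, Tff2 and Gkn3, and 7 members were lowest in EpCAM- replicate 2. Shares of all tested genes lowest in these libraries were not computed.

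The trefoil factors lie within 40.0 kb on chromosome 17 and the gastrokines within 43.3 kb on chromosome 6, so their neighbours were examined. Around the trefoil cluster, 6 other genes with a start within 250 kb were tested, and 4 fell. These were Gm15318 (-3.03), the sugar-phosphate transporter gene Slc37a1 (-5.45), the incretin receptor gene Glp1r (-4.10) and the phosphodiesterase gene Pde9a (-3.87). Gm15318 overlaps Tff1 on the other strand, and its reads may be mixed with those of Tff1, so it is not a separate neighbour in this count. The lipid transporter gene Abcg1 (0.24, adjusted p = 0.698) and the ciliary gene Rsph1 (-0.45, adjusted p = 0.162) did not pass in limma. Abcg1 was at 1.02 and passed without EpCAM+ replicate 1 and EpCAM- replicate 3 together. Umodl1, Tmprss3 and Ubash3a were under the filter. Around the gastrokine cluster, 3 other genes were tested, and 2 rose, against the direction of the gastrokines between them. Such small counts around both clusters are a description, and 23.1% of all tested genes fell and 20.3% rose. The anthrax toxin receptor gene Antxr1 was at 9.75, 9.10 and 9.27 in EpCAM+ and at 10.45, 11.43 and 10.17 in EpCAM- replicates 1, 2 and 3 (1.31 ± 0.34, SE, limma adjusted p = 0.0180), and its start lies 15.1 kb from that of the nearest gastrokine. Prokr1, a prokineticin receptor gene, rose by 0.72 ± 0.22 (SE, limma adjusted p = 0.0332) at a low level. D6Ertd527e (0.045) did not pass, and Bmp10, Arhgap25 and 4 unclassified transcripts were under the filter. Antxr1 lost its call without EpCAM+ replicate 2 or 3, and Prokr1 lost its own without any 1 library except EpCAM- replicate 1.

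**Figure D4:**
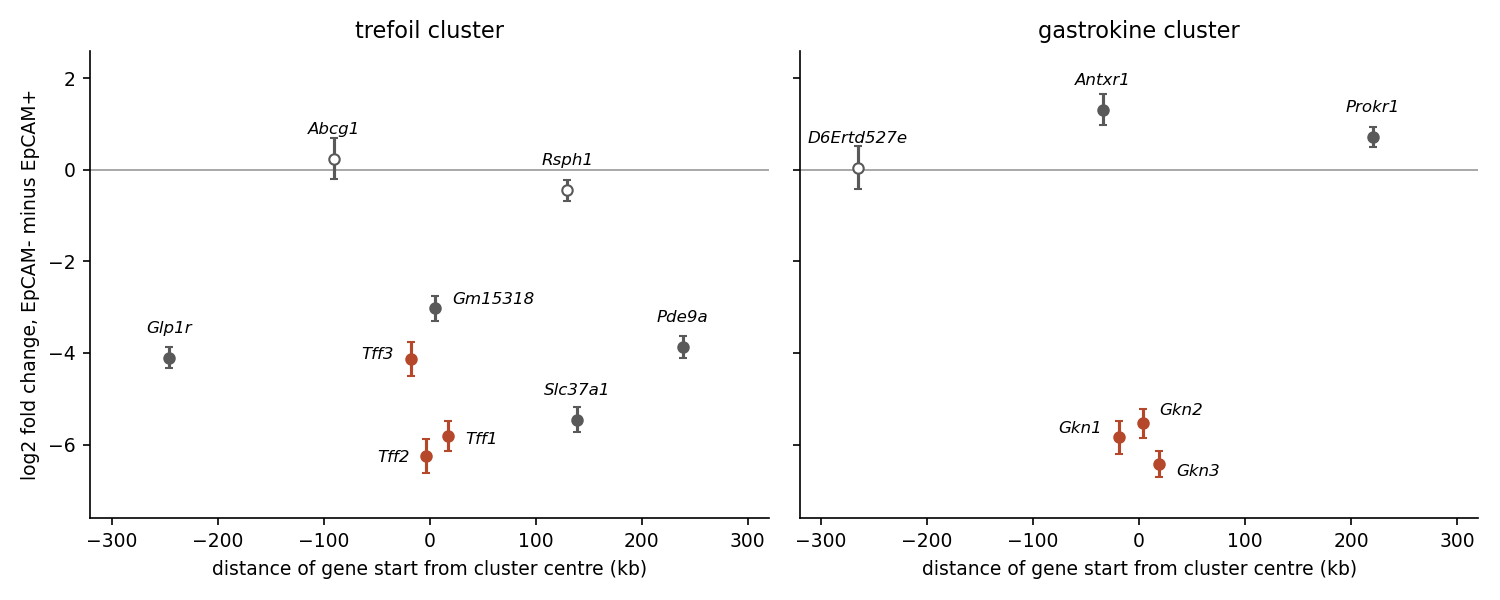
Log2 fold change with its SE (y axis) of tested genes by the distance of their start from the centre of the trefoil cluster (left) and the gastrokine cluster (right), with members in red, other genes in grey and open symbols for genes that did not pass. The gastrokines, between -6.42 and -5.53, lie between Antxr1 at 1.31 and Prokr1 at 0.72.

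Promoters of 6 of the 10 members were found in the RefSeq table for GRCm38, those of Gkn1, Gkn2, Gkn3, Anxa10, Vsig1 and Pgc. No entry was found for Tff1, Tff2, Tff3 and Ctse. The gastrokine promoters are shown because these adjacent genes fell together. Each runs from 250 bases before the RefSeq start to the first 3 bases from it, with capitals for matches to the searched motifs. Counted from the RefSeq start, the GENCODE M21 gene start lies at -27 bases for Gkn1, -8 for Gkn2 and 43 for Anxa10. A minus sign means before the RefSeq start, and motif positions below refer to the RefSeq start.
Gkn1 (chr6:87350913-87351165, minus strand): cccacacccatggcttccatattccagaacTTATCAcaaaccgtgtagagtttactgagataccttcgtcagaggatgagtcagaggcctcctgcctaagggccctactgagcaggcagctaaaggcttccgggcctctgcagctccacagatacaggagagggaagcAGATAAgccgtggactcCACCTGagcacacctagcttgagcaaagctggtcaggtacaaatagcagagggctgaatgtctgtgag
Gkn2 (chr6:87373115-87373367, plus strand): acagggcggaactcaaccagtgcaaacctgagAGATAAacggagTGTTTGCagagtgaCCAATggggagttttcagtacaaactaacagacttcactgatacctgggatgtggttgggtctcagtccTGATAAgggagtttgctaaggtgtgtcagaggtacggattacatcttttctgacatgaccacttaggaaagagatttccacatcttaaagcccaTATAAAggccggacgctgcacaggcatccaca
Gkn3 (chr6:87388933-87389185, minus strand): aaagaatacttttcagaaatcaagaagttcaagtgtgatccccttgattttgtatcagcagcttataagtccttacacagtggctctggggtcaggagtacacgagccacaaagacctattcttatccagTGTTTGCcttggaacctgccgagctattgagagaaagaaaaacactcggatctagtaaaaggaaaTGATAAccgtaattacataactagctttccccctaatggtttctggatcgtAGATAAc
The search covered 250 bases before and 50 from the start, on both strands. Its motifs were the TATA box TATAAA, the CCAAT box, the GATA factor motif as AGATAA or as TGATAA, the forkhead motif as TGTTTAC or as TGTTTGC, the E-box CAGGTG and, as part of the Hnf4 motif, CAAAGTCC. All 3 gastrokine promoters held AGATAA and TGATAA, a pair held by 1.62% of 32851 promoters searched over the same window. Either form was found in 18.6% of promoters and in none of the windows of Anxa10, Vsig1 and Pgc. Other forms of the GATA motif, such as TGATAG, were not searched, and the Anxa10 window holds that form. TATAAA began 29 bases before the start in Gkn2, 32 before it in Anxa10 and 31 before it in Pgc, and 13.6% of promoters hold it. TGTTTGC was in Gkn2 and Gkn3 (5.07% of promoters), CCAAT in Gkn2 and Vsig1 (37.4%) and CAGGTG in Gkn1 and Vsig1 (20.2%). Neither TGTTTAC nor CAAAGTCC was found in the windows of these 6 genes. A match describes the sequence and is not evidence of a bound site.

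Other genes of gastric mucosa and related epithelia, in 7 lists, were mostly lower in EpCAM- than in EpCAM+ cells. Of 84 listed genes in the table, 66 were tested, of which 50 fell, 4 rose and 12 did not pass, with a median of -3.39. The number that rose was 2 without EpCAM+ replicate 3 and 2 without EpCAM- replicate 2. Since a gene high in 1 group can pass the filter through that group, these counts are a description. Over all tested genes, 23.1% fell and 20.3% rose, the shares to set beside the counts of each list. Among surface mucous cell genes, 11 of 11 tested members fell (median -5.16) and 4 were under the filter. Examples are Agr2 (-6.31 ± 0.34, SE), a folding enzyme of mucus-secreting cells, the membrane mucin gene Muc1 (-5.83 ± 0.24, SE), the sodium-proton exchanger gene Slc9a4 (-5.40 ± 0.27, SE) and the sulfotransferase gene Sult1c2 (-5.36 ± 0.33, SE). The gel-forming mucin gene Muc5ac was at 7.81, 8.56 and 10.09 in EpCAM+ and at 3.68, 5.98 and 3.93 in EpCAM- replicates 1, 2 and 3, and its level per kilobase in EpCAM+ libraries, 52.4 ± 42.9 (SD, n = 3), was lower than that of Tff3. The junction gene Cldn18, used as a marker of gastric-type cells, had a log2 fold change of -1.58 ± 0.36 (SE, limma adjusted p = 0.0116).

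Genes of mucous neck cells and of pyloric-type metaplasia were split. Of 12 tested, 9 fell, 1 rose and 2 did not pass (median -3.87). Dmbt1 (-6.34 ± 0.36, SE), a mucosal scavenger receptor, the antibody transporter gene Pigr (-5.93 ± 0.44, SE), the gland mucin gene Muc6 (-5.77 ± 0.80, SE) and the glycosyltransferase gene Galnt6 (-5.37 ± 0.26, SE) fell. Muc6, whose product is packed with Tff2 in gland mucus, was at 13.61, 15.97 and 16.68 in EpCAM+ and at 8.70, 10.38 and 9.89 in EpCAM- replicates 1, 2 and 3. Its lowest EpCAM+ library was replicate 1, as for Tff2, Gkn2, Gkn3 and Pgc, but by a wider margin of more than 2 log2 units. The metaplasia marker Cd44 (0.043, adjusted p = 0.860) and Glipr1 (-0.19, adjusted p = 0.681) did not pass in limma. Sox9, a transcription factor of duct and progenitor cells, rose by 0.70 ± 0.22 (SE, limma adjusted p = 0.0370), a call lost without EpCAM+ replicate 1 or 3 or EpCAM- replicate 2 or 3. It was lost too without EpCAM+ replicate 1 and EpCAM- replicate 3 together (0.50, limma adjusted p = 0.231) and after quantile normalisation (0.60, limma adjusted p = 0.0519).

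Of 11 genes in the table listed for chief and parietal cells, the enzyme and acid cells of the stomach, 6 were under the filter. Among them was the parietal pump subunit gene Atp4b, between -1.10 and -0.95 in all libraries. The lowest value in the table is -1.52, but genes under the filter could be near constant at different values. In EpCAM- replicates 1, 2 and 3, Ren1 was at -1.51, -1.51 and -1.51 and Bmp10 at -1.09, -1.08 and -1.09. The distance of such a gene from -1.52 therefore does not give its level. The pepsinogen gene Pga5 lay between -0.24 and 0.073, the intrinsic factor gene Gif between 1.88 and 2.83 and the gastrin gene Gast between 1.37 and 3.54. Of the 5 tested, 4 fell and 1 did not pass (median -2.38). Kcnq1 (-6.73 ± 0.32, SE), a potassium channel gene of many epithelia at 11.31, 11.22 and 11.46 in EpCAM+ replicates 1, 2 and 3, and the hormone genes Sst, also made by islets (-4.14 ± 0.41, SE) and Ghrl (-2.38 ± 0.47, SE) fell, as did the pump subunit gene Atp4a (-2.19 ± 0.30, SE), which was at most 5.31 in a library. The secretory cell factor gene Bhlha15 (-1.14, adjusted p = 0.0934) did not pass in limma, and it passed when EpCAM- replicate 3 was left out. Chia1, Lipf and Cblif, the newer name of Gif, had no match by symbol.

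Intestinal genes were included because Tff3 is also a goblet cell gene. All 8 tested members fell (median -5.20) and 5 were under the filter. The brush border gene Vil1 (-6.38 ± 0.26, SE), the cadherin gene Cdh17 (-5.64 ± 0.24, SE), the galectin gene Lgals4 (-5.95 ± 0.38, SE) and the mucus protein gene Fcgbp (-5.87 ± 0.30, SE) were the largest changes. The genes under the filter included the transcription factor gene Cdx2 between 0.54 and 1.20, the goblet mucin gene Muc2 between 2.75 and 3.38 and Reg4 between 0.58 and 1.17, ranges over all 6 libraries.

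Transcription factors of the foregut and of mucous cells changed by very different amounts. Of 20 tested, 15 fell, 1 rose and 4 did not pass (median -2.74), and Sox2 and Barx1 were under the filter. The largest falls were those of the epithelial Ets factor gene Elf3 (-6.02 ± 0.25, SE), Foxq1 (-5.10 ± 0.23, SE), which acts in gastric surface cells, Hnf4a (-4.94 ± 0.24, SE) and the mucous cell factor gene Spdef (-4.90 ± 0.32, SE). Foxa3 (-4.46), Sox21 (-3.89), Onecut2 (-2.97) and Hnf4g (-2.50) fell as well. Among GATA factors, Gata5 (-3.41 ± 0.46, SE, limma adjusted p = 0.00107) and Gata6 (-0.88 ± 0.23, SE, limma adjusted p = 0.0180) fell. Gata4 was at 10.18, 9.83 and 10.53 in EpCAM+ and at 10.05, 10.29 and 10.74 in EpCAM- replicates 1, 2 and 3 and did not pass (0.18, adjusted p = 0.571). The forkhead factor genes Foxa1 (-1.54 ± 0.42, SE) and Foxa2 (-1.49 ± 0.34, SE) fell, as did Klf5 (-0.93 ± 0.12, SE). Klf4 rose by 0.82 ± 0.21 (SE, limma adjusted p = 0.0186). Pdx1, the gene whose promoter drives Cre, was at 10.24, 9.69 and 9.82 in EpCAM+ and at 10.03, 9.77 and 9.57 in EpCAM- replicates 1, 2 and 3 and did not pass (-0.13, adjusted p = 0.605). Creb3l1 (-0.64, adjusted p = 0.107) and Nkx6-3 (-1.69, adjusted p = 0.149), a factor of the distal stomach, did not pass in limma, and both passed when EpCAM- replicate 3 was left out. Gata6 lost its call without EpCAM+ replicate 2 or 3 or EpCAM- replicate 3, Foxa1 without any 1 library except EpCAM- replicate 3, Foxa2 without EpCAM+ replicate 1 and EpCAM- replicate 3 together, and Klf4 without EpCAM+ replicate 2 or 3 or EpCAM- replicate 2.

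Genes of reported trefoil receptors and mucus partners did not move one way. Of 10 tested, 5 fell, 2 rose and 3 did not pass (median -0.997), where 23.1% of all tested genes fell and 20.3% rose. The 5 that fell were the mucus genes Dmbt1, Fcgbp, Muc5ac and Muc6, which are also in the lists above, and the protease-activated receptor gene F2rl1 (-1.29 ± 0.21, SE). Lingo2, reported as a receptor of Tff3, was at 4.42, 3.91 and 4.02 in EpCAM+ and at 7.69, 6.95 and 7.41 in EpCAM- replicates 1, 2 and 3, a rise of 3.23 ± 0.26 (SE, limma adjusted p = 0.000104). The scavenging chemokine receptor gene Ackr3 rose by 2.10 ± 0.21 (SE, limma adjusted p = 0.000266). Cxcr4, reported as a receptor of Tff2, was at 9.10, 7.06 and 8.18 in EpCAM+ and at 9.02, 9.07 and 7.82 in EpCAM- replicates 1, 2 and 3, groups that overlapped (0.52, limma adjusted p = 0.482). Its difference was 1.42 and passed without EpCAM+ replicate 1 and EpCAM- replicate 3 together. The growth factor receptor gene Egfr (-0.70, adjusted p = 0.0826) and F2r (0.47, adjusted p = 0.216) did not pass in limma, and Egfr passed when EpCAM- replicate 1 was left out.

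**Figure D5:**
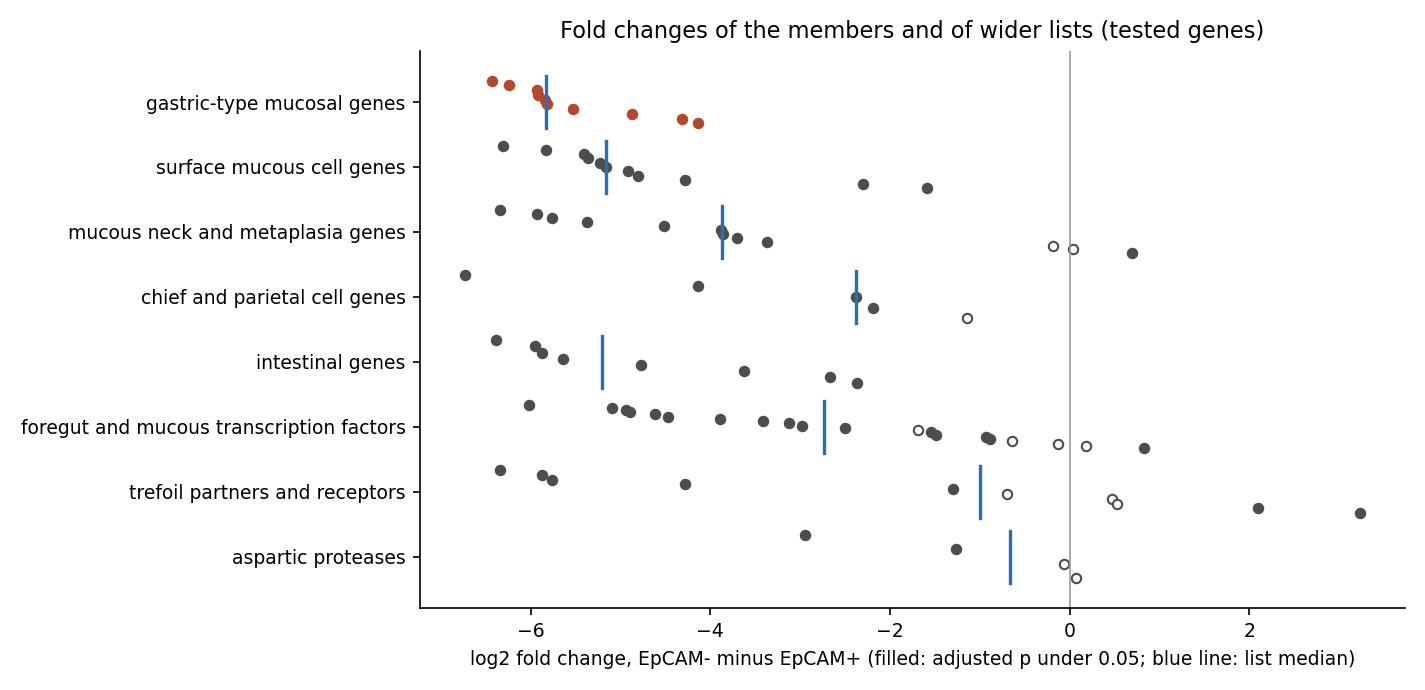
Log2 fold change (x axis) of each tested gene in the members' list and in the 7 wider lists, each gene a point, filled where it passed, with a blue line at the list median. The members run from -6.42 to -4.13, and the trefoil partners reach from -6.34 for Dmbt1 to 3.23 for Lingo2.

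Many markers of other cells that the sort could hold also differed between groups. The shares over all tested genes were 23.1% lower and 20.3% higher in EpCAM- cells. For acinar cells, 11 of 12 tested markers fell, and their summed back-transformed level was 112600, 56050 and 105800 in EpCAM+ replicates 1, 2 and 3 and between 418.9 and 603.1 in EpCAM- libraries. For islet cells, 9 of 9 fell, with sums of 12090, 2415 and 2917 in EpCAM+ replicates 1, 2 and 3 and between 94.9 and 152.6 in EpCAM-. For macrophages and other leukocytes, 10 of 11 fell, with sums of 5853, 1261 and 2238 in EpCAM+ and between 381.2 and 675.4 in EpCAM-, and the T cell gene Cd3e lay between -1.51 and -1.40. Of 10 tested fibroblast markers 7 rose and 2 fell, and their sums overlapped, with 7877, 8447 and 12780 in EpCAM+ and 8209, 15130 and 5011 in EpCAM- replicates 1, 2 and 3. Most of the EpCAM+ sums came from C3, which fell and was at 12.57, 12.84 and 13.45 in EpCAM+ replicates 1, 2 and 3. The overlap of the sums therefore does not describe the markers that rose. Of 4 tested endothelial markers 1 rose, with sums between 97.5 and 132.0 in EpCAM+ and between 185.0 and 198.6 in EpCAM-. The members' own sum was 91510, 80190 and 126300 in EpCAM+ replicates 1, 2 and 3 and between 1286 and 2071 in EpCAM- libraries. The acinar, islet and leukocyte sums were highest in EpCAM+ replicate 1, and the members' sum was highest in replicate 3. The part of these cells in the members' fold changes was not tested.

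By the mean absolute difference from the members' mean profile over the 6 libraries, each gene centred on its own mean, the tested genes most like the members were Fam83e (0.149), Homer2 (0.154), Slc9a4 (0.160), Clic6 (0.168) and Sult1c2 (0.187). The same distance for the members themselves ran from 0.0681 for Gkn2 and 0.157 for Tff1 to 0.595 for Vsig1 and 0.685 for Tff3. As the profile is mainly the difference between the groups, likeness here is for the most part a like fold change.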

How the data were processed

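The 6 RNA libraries (3 from EpCAM+ cells, 3 from EpCAM- cells) were prepared with a KAPA mRNA kit for Illumina sequencing, per the labels' protocols. The submitters' processing notes name the aligner STAR (2.5.2), the quantifier RSEM, DESeq2 (1.24.0) and the build GRCm38, with no role or order. The values deposited by the authors are normalised and on a log2 scale, from -1.52 to 20.05. No source used here gives their transform, so the sequencing depth is unknown and no detection limit is given. Symbols, lengths and gene positions came from GENCODE M21, which matched 25846 identifiers and left 132 unmatched. Promoter windows were placed by RefSeq starts.

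A gene was tested where its values, back-transformed from log2, averaged at least 10. The test was limma (version 3.58.1, R 4.3.3) with an intensity trend for the variance prior, without covariates and two-sided, and p-values were adjusted by Benjamini-Hochberg over all 15783 tested genes at a threshold of 0.05. The procedure was tested on simulated data. A further allele of the mice and some genes of the lists are not reported here. P-values measure the spread between these libraries, which the series text calls biological replicates. The members, the lists, the tests and the alternatives were chosen with earlier results of these data known. Named genes are all members, Epcam, up to 4 genes of each wider list that passed with the greatest fold change, genes that passed against their list's main direction, foregut transcription factors, neighbours of the clusters and the 5 genes most like the members. Genes of the lists outside this rule, such as Muc5ac, Cldn18, Atp4b, Pga5, Gif, Gast, Cdx2, Muc2, Reg4, Cd44, Glipr1, Bhlha15, Cxcr4, Egfr, F2r, Ctsd, Bace1 and C3, were chosen after their values were seen. The alternatives added 0.5, 1 or 5 before the log2, used other filters, scalings, weights or variance priors, took the replicate number as a term, or left out libraries.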

Additional observations from a re-analysis of the deposited data

How the results depend on the processing

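All 10 members kept their direction and their call under all 18 alternatives, 180 of 180 values, with a largest limma adjusted p of 0.00229. The widest range was that of Tff3, from -4.37 to -3.36. Over all genes, 6850 passed, 4369 without EpCAM+ replicate 1 and EpCAM- replicate 3 together and 4987 to 7300 with 1 library left out. The number of wider-list genes that rose was 4, and it was between 2 and 4 with 1 library left out. The level of Ctse per kilobase in EpCAM+ was 25150 with the length of its longest transcript. Quantile normalisation moved the median log2 fold change of all tested genes to 0.136 and gave 3246 lower and 4241 higher genes.

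Genes that did not pass and changed sign when 1 library was left out had ranges of -0.012 to 0.35 (Gata4), -0.25 to 0.033 (Pdx1), -0.044 to 0.67 (Abcg1), -0.29 to 0.55 (D6Ertd527e), -0.47 to 0.14 (Glipr1), -0.013 to 0.11 (Cd44), -0.002 to 1.02 (Cxcr4) and -0.25 to 0.24 (Ctsd). Without EpCAM+ replicate 1 and EpCAM- replicate 3 together the values were -0.011 (Gata4), 0.14 (Pdx1), -0.39 (D6Ertd527e), 0.36 (Glipr1), -0.046 (Cd44), 0.26 (Ctsd) and, past the test, 1.42 (Cxcr4) and 1.02 (Abcg1), and with array weights that of Abcg1 was -0.074. The cause was not tested.

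With the replicate number as a block, 7090 genes passed, all 10 members fell, and Nkx6-3, Creb3l1, Bhlha15 and Egfr passed. Deviations of same-numbered libraries from their group means correlated over tested genes at 0.41, 0.044 and 0.165 for replicates 1, 2 and 3. Those of differently numbered libraries correlated at -0.337 to 0.23. These values do not settle whether equal numbers share a tumour. As no label gives pairs, the main test did not treat the numbers as pairs. EpCAM+ replicate 2 and EpCAM- replicate 3 correlated at 0.23, more than either did with its own number. As the depth is unknown, how firmly low levels such as those of Tff3 and Pgc in EpCAM- cells are measured cannot be given.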
